A study of Mus musculus with 17 samples.

Results

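The genes described here are 32 mouse genes of fatty acid oxidation and of the response to PPAR alpha, chosen by gene symbol from a list set by their known roles. All 32 were in both deposited count tables, where they were 32 of 19151 genes listed under a high-fat diet (HFD) and 32 of 24233 genes listed under a Western diet (WD). They were grouped by role into 2 regulators, 4 carnitine genes called entry genes here, and 9 genes of the mitochondrial beta-oxidation cycle. The others were 3 mitochondrial auxiliary genes for unsaturated chains, 8 genes of peroxisomal steps and 6 other PPAR alpha targets. The entry genes were Cpt1a, Cpt2, Slc25a20 and Crat, of which Crat encodes a transferase of acetyl groups and not of long chains. The 16 mitochondrial genes (entry, cycle and auxiliary) and the 8 peroxisomal genes were described apart. All 32 passed the filter on low counts in every comparison.

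Fatty acids are broken down by beta-oxidation, a repeated cycle of dehydrogenation, hydration, a second dehydrogenation and thiolytic cleavage that runs in mitochondria on most chains and in peroxisomes on very long and branched chains. Long chains enter mitochondria as carnitine esters, and double bonds are moved or reduced by auxiliary enzymes before the cycle can go on. In hepatocytes the nuclear receptor PPAR alpha, which binds fatty acids as ligands and pairs with a retinoid X receptor, switches on genes of both compartments, most of all in fasting.

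RNA-seq was performed on 17 samples of male mice on a C57BL6 background. The knockout mice (N-LKO) carried a loxP-flanked allele of NgBR, the Nus1 product and a subunit of the dolichol-making cis-prenyltransferase, which was deleted by Cre under the albumin promoter. On HFD for 16 weeks there were 4 WT livers and 4 N-LKO livers. On WD, a diet high in fat and cholesterol, for 16 weeks there were 3 WT livers, 3 N-LKO livers and 3 tumors of N-LKO mice. All mice had first been kept on a standard diet, and those compared were matched for sex and age. Albumin-driven Cre acts mainly in hepatocytes, and deletion was not measured by cell type in these samples. The sources used here do not say whether WT mice carried the loxP-flanked allele or whether the mice were fasted at harvest. They also do not say whether a tumor and a liver came from the same mouse. The study reports liver tumor nodules in all male N-LKO mice on either diet. Whether the N-LKO liver samples were free of nodules is not stated, so these livers are not taken here as tumor-free tissue. The labels number the samples as biological replicates and do not tie them to single animals, so p-values measure the spread between these samples.

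Total counts per library were 9096110 to 12215784 under HFD and 15494731 to 20200618 under WD. Nus1 stood at 82.5 to 96.2 CPM (counts scaled to a common library total) in HFD WT livers and at 29.4 to 38.0 CPM in HFD N-LKO livers, with no overlap between the groups. Under WD it stood at 88.2 to 98.9 CPM in WT livers, 41.7 to 51.1 CPM in N-LKO livers and 28.99 to 43.99 CPM in tumors. CPM values here are scaled by the TMM factors of edgeR, and WD WT liver replicate 2 had the lowest of these factors (0.806, against 0.941 to 1.15 for the other WD libraries). That library held the highest value of its group for 24 of the 32 genes, and for 39.4% of all genes tested. Hepatocyte markers (7 genes measured of 8 listed) summed to 56582 to 73806 CPM over the HFD livers. They summed to 31198 to 53207 CPM over the WD livers and 35319 to 59495 CPM over the tumors. CPM were scaled apart for each diet, so levels of 1 diet are not to be read against those of the other. In such bulk samples, fewer cells of a type and less RNA per cell cannot be told apart.

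Levels of different genes were compared within each group, per kilobase of their longest annotated transcript. On that scale, Acaa1b, a peroxisomal thiolase, was the most abundant of the 32 genes in HFD WT livers, with a mean level of 577 CPM per kilobase. It was followed by the mitochondrial thiolase Acaa2 at 431 CPM per kilobase and by the peroxisomal carnitine octanoyltransferase Crot at 403 CPM per kilobase. In WD WT livers the order began with Acaa1b at 992, Ehhadh at 505 and Crot at 434 CPM per kilobase. In tumors it began with Ehhadh, the peroxisomal bifunctional enzyme, at 737 CPM per kilobase, ahead of Acaa1b at 533 and Crot at 416 CPM per kilobase. Ppargc1a, a coactivator of PPAR alpha, was the lowest of the 32 genes in every group. It stood at 1.71 and 1.96 CPM per kilobase in HFD WT and N-LKO livers. Under WD it stood at 3.26, 2.69 and 3.22 CPM per kilobase in WT livers, N-LKO livers and tumors.

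Some of these genes have close copies, which limits how well reads of 75 bases can be assigned to them. Acaa1a and Acaa1b, which encode peroxisomal thiolases, lie on chromosome 9 of GRCm38 (GENCODE M21), Acaa1a from 119339676 to 119350299 on the plus strand and Acaa1b from 119148023 to 119157093 on the minus strand. Their coding sequences of 1272 bases were identical at 1228 positions (96.5%). The last 150 coding bases of each, read from the GENCODE M21 transcripts, are shown because they differed at only 2 positions, given in capitals, so that a read from this stretch is told apart by at most 2 bases.
Acaa1a: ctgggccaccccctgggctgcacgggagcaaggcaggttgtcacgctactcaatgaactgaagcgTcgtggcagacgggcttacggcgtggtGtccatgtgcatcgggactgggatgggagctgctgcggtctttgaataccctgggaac
Acaa1b: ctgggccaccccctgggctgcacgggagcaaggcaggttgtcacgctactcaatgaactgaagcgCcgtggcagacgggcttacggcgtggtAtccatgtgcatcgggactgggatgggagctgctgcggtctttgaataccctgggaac
Of all windows of 75 bases along the transcript with the longest coding sequence, 27.3% in Acaa1a and 37.8% in Acaa1b also occurred in another gene. The share was 57.2% in Hadhb, whose windows recur in the annotated genes Gm13910 and Gm9108, 26.4% in Acot1, 21.2% in Acot2, 14% in Acadvl and 10.1% in Eci2. It was 0.0254% to 5.45% in Hadha, Acadm, Pdk4, Crot and Bdh1, and no window was shared in the remaining 20 genes. Since the deposited counts can divide a shared read between the genes it could come from, values of Hadhb and of the Acaa1 and Acot pairs are uncertain. The same limit holds for Acadvl and Eci2 over a smaller share of windows. Eci2 was not summed with Eci3, a gene in which some of its windows recur.

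PPAR alpha binds DNA at a direct repeat with 1 spacer base (DR1), searched here as AGGTCA, any base, AGGTCA on both strands with up to 2 mismatches among its 12 fixed bases. The windows ran from 250 bases before to 50 bases after each start site in the RefSeq promoters of GRCm38.p6. Such a match was present in 2 of the 27 genes with a promoter in that table, Slc25a20 and Echs1, and in 4.4% of all 27025 genes there. At 1 mismatch or fewer, 0 of the 27 genes and 0.644% of all genes had a match. The 2 matches are shown with 8 flanking bases on each side, 5′ to 3′ on the strand of the gene, with the 13 bases of the match in capitals.
Slc25a20 (chr9:108662134-108662162, plus strand): ctgaatgtAGGTGAAAGGTCGgcggagcc
Echs1 (chr7:140116484-140116512, minus strand): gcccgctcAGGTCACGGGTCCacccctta
The Slc25a20 match began 6 bases after the start site and differed from the motif by C5G and A13G, with positions counted from 1 at the 5′ end of the motif. The Echs1 match began 83 bases before the start site and differed by A8G and A13C. No binding was measured in these samples, and the matches describe these letters only. Promoters of Crat, Decr1, Acaa2, Hsd17b4 and Vnn1 were not analysed here.

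**Figure D1:**
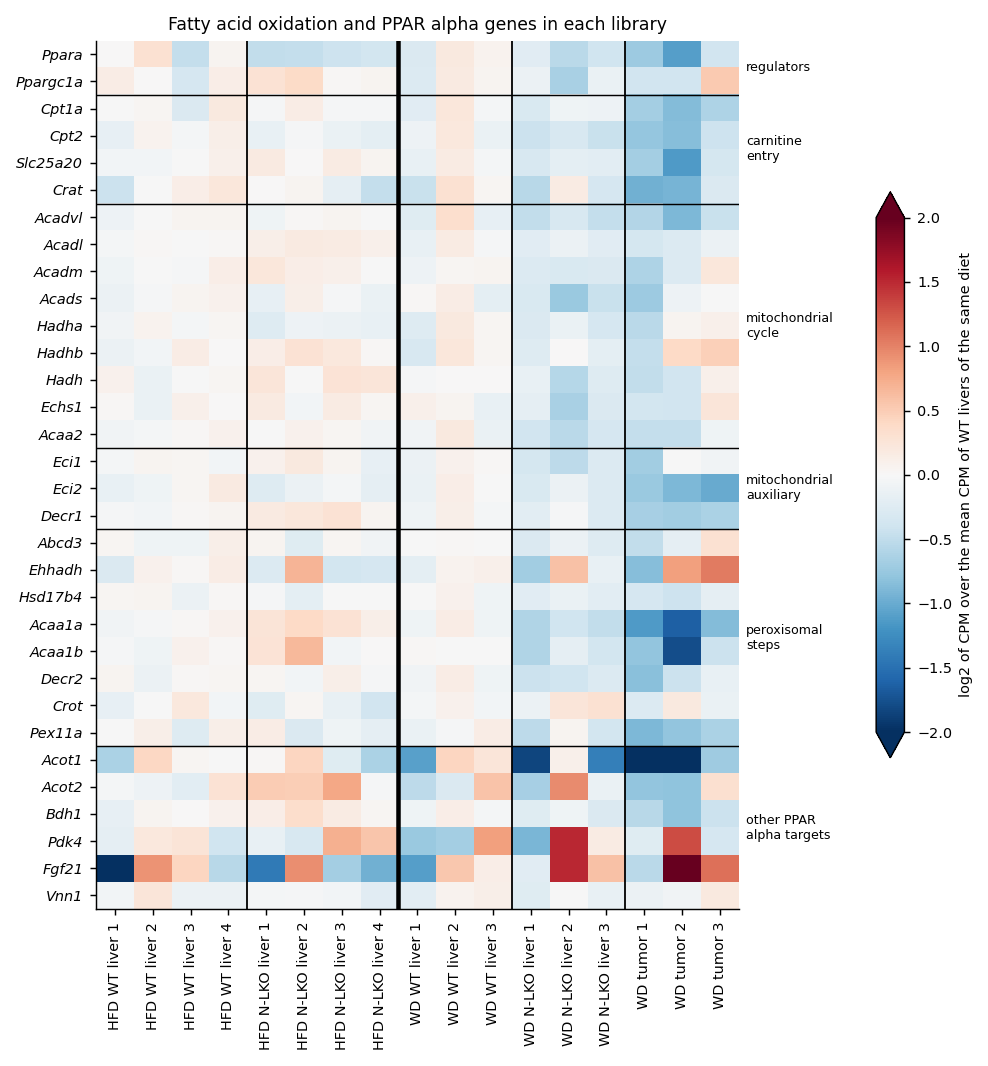
Level of each of the 32 genes (rows, by role) in each of the 17 libraries (columns), as log2 of its CPM over the mean CPM of the WT livers of the same diet. Colours end at 2 either way, and values past that take the end colour. HFD columns stay pale in most rows outside Acot1, Pdk4 and Fgf21, while tumor columns are blue for the carnitine entry genes and Acaa1a, and differ from one another for Ehhadh, Pdk4 and Fgf21.

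The comparison of N-LKO with WT livers under HFD asked whether loss of NgBR goes with other levels of the oxidation genes on this diet. No gene passed the test (edgeR, Benjamini-Hochberg adjusted p under 0.05), that is 0 of 32, where 4.84% of the 13460 genes tested did. The log2 fold changes of N-LKO over WT ran from −0.44 for Ppara to 0.46 for Acot2, with a median of 0.01 over the 32 genes and of −0.01 over all genes. At an unadjusted p under 0.05, 3 of the 32 genes were higher (Acaa1a, Acot2, Decr1) and 1 lower (Ppara), against 22.7% of all genes in either direction. DESeq2 called 2 genes, Acaa1a and Ppara, where it called 7.43% of all genes, and limma-voom called 0, where it called 4.55% of all genes. The groups did not overlap for 4 of the 32 genes, where this held for 14.8% of all genes.

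Ppara itself, the receptor, stood at 133, 165, 96.1 and 137.7 CPM in HFD WT livers and at 94.1, 95.4, 99.99 and 103 CPM in HFD N-LKO livers. WT replicate 3 lay inside the N-LKO range and the other WT livers lay above it. The log2 fold change was −0.44 (SE 0.13, edgeR adjusted p = 0.0799), and Ppara was called in 2 of 16 alternatives, by DESeq2 and by edgeR without WT replicate 3 (−0.56, edgeR adjusted p = 0.0180). Over the 16 alternatives it ran from −0.56 to −0.32, with adjusted p up to 0.196. Ppargc1a, its coactivator, stood at 8.78 to 12.3 CPM in WT livers and 11.2 to 14.5 CPM in N-LKO livers, with a log2 fold change of 0.19 (SE 0.14).

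The mitochondrial genes lay close together under HFD. Their 16 log2 fold changes ran from −0.16 for Hadha to 0.19 for Hadh and Decr1, with a median of 0.03, and 10 were above 0. Cpt1a, the outer-membrane transferase that controls the entry of long chains, stood at 565, 583, 462 and 649 CPM in WT livers and at 553, 629, 553 and 554 CPM in N-LKO livers, a log2 fold change of 0.02 (SE 0.11). For 3 mitochondrial genes the groups did not overlap. Acadl, the long-chain acyl-CoA dehydrogenase, stood at 279, 288, 283 and 289 CPM in WT livers and 308, 323, 319 and 306 CPM in N-LKO livers. Decr1, the mitochondrial dienoyl-CoA reductase for unsaturated chains, stood at 257, 250.4, 264 and 269 CPM in WT livers and 293, 304, 318 and 271 CPM in N-LKO livers. Both genes were higher in every N-LKO library, by 0.14 (SE 0.07) and 0.19 (SE 0.08) on the log2 scale, with edgeR adjusted p of 0.258 and 0.174. Hadha, the alpha subunit of the mitochondrial trifunctional protein, stood at 478, 529, 491 and 519 CPM in WT livers and 421, 472, 463 and 456 CPM in N-LKO livers, lower in every N-LKO library (log2 fold change −0.16, SE 0.08). Hadhb, which encodes the beta subunit and lies head to head with Hadha on chromosome 5, had a log2 fold change of 0.17 (SE 0.09), with the overlap with copies given above.

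Of the 8 peroxisomal genes under HFD, 4 had log2 fold changes above 0 and 4 below, with a median of −0.02. Acaa1a stood at 183, 188, 195 and 203 CPM in WT livers and at 229, 253, 235 and 208 CPM in N-LKO livers. Every N-LKO library was above every WT library, by 0.27 on the log2 scale (SE 0.08, edgeR adjusted p = 0.0850), and with the reads of Acaa1b added in the difference was 0.25 (SE 0.13). Acaa1b and Ehhadh were set apart by 1 library. N-LKO replicate 2 held 1523 CPM of Acaa1b, where the other N-LKO livers held 937 to 1178 CPM and WT livers 917 to 1034 CPM. The same library held 807 CPM of Ehhadh, where the other N-LKO livers held 391 to 417 CPM and WT livers 412 to 557 CPM. It was the highest of its group for 18 of the 32 genes and for 32.2% of all genes tested. Pex11a, which acts in peroxisome division, Abcd3, the peroxisomal fatty acyl-CoA transporter, Hsd17b4, the other bifunctional enzyme, Decr2, the peroxisomal dienoyl-CoA reductase, and Crot had log2 fold changes between −0.18 and 0.02.

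Fgf21, a hormone that the liver secretes in fasting and one of the 6 other PPAR alpha targets, was lowest at 0.729 CPM and highest at 13.7 CPM among WT livers, against 2.73 and 13.9 CPM among N-LKO livers. Its SD of log2 CPM among WT livers, 1.89, was above that of 99.7% of genes tested, while the median SD was 0.106 over the 32 genes and 0.208 over all genes. Acot2, a mitochondrial acyl-CoA thioesterase, stood at 18.9, 18.1, 16.7 and 23.7 CPM in WT livers and 27.5, 27.2, 33.2 and 19.0 CPM in N-LKO livers. Its log2 fold change was 0.46 (SE 0.16, edgeR adjusted p = 0.119), and it was called in 1 of 16 alternatives, without N-LKO replicate 4, the low library (0.60, edgeR adjusted p = 0.0484), with values from 0.35 to 0.60 and adjusted p up to 0.258 over all of them. Summed with its copy Acot1, a cytosolic thioesterase, it was 0.08 (SE 0.19). Bdh1, an enzyme of ketone body metabolism, Pdk4, a kinase that restrains pyruvate dehydrogenase, and Vnn1, a pantetheinase, had log2 fold changes of 0.17, 0.25 and −0.08, none past the threshold.

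Markers of other cells also differed in the same HFD comparison. Of 7 tested markers of Kupffer cells and macrophages, 3 were lower in N-LKO livers by the same edgeR test (Timd4, Clec4f and Vsig4, log2 fold changes −2.19 to −0.90), while the list ran up to 1.40 with 1 marker higher at an unadjusted p under 0.05. Also lower was 1 of 6 endothelial markers (Stab2, −0.61), and of 2 tested cholangiocyte markers Spp1 was higher (1.55). Of 7 stellate cell and fibroblast markers 0 were called, with a median of 0.50, and 4 were higher and 1 lower at an unadjusted p under 0.05. Of 7 hepatocyte markers 0 were called, and 1 passed at an unadjusted p under 0.05. The part of these marker differences in the values above was not tested.

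Under WD, the comparison of N-LKO with WT livers found the oxidation genes lower in most cases, by amounts that did not pass the test. edgeR called 0 of the 32 genes and 0.00% of the 17829 genes tested, and DESeq2 and limma-voom also called 0 of the 32, where they called 0.561% and 0.00% of all genes. Log2 fold changes were below 0 for 27 of the 32 genes, with a median of −0.25, while 48.6% of all genes were below 0 with a median of 0.01. At an unadjusted p under 0.05, 5 of the 32 genes were lower (Acaa1a, Acads, Acadvl, Acaa2 and Cpt2) and 0 higher, where 5.31% of all genes were lower at that level. For 14 of the 32 genes every N-LKO library was below every WT library, where this held for 13.6% of all genes, and for 0 of them was it above.

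All 16 mitochondrial genes had lower means in WD N-LKO livers, with log2 fold changes from −0.49 for Acads to −0.15 for Hadhb and a median of −0.27. The 16 values stayed below 0 in each of the 18 alternative settings, with medians from −0.34 to −0.19. The sum over the 16 genes was 4996, 6219 and 5391 CPM in WT livers and 4479.5, 4646 and 4588 CPM in N-LKO livers, so the groups did not overlap. Among the entry genes, Cpt2, the inner-membrane carnitine palmitoyltransferase, stood at 182, 227 and 179.7 CPM in WT livers and 145, 157 and 143 CPM in N-LKO livers, a log2 fold change of −0.40 (SE 0.16, edgeR adjusted p = 0.381). Cpt1a stood at 868, 1192 and 989.8 CPM in WT livers and 820.5, 959 and 950.1 CPM in N-LKO livers, which overlapped. Slc25a20, the carnitine-acylcarnitine translocase of the inner membrane with the start-site match shown above, did not overlap between the groups (150.5, 188 and 163.4 CPM against 134, 147 and 145 CPM). Crat, the carnitine acetyltransferase, overlapped, at 91.02 to 153 CPM in WT livers and 84.4 to 139 CPM in N-LKO livers.

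Within the cycle, 6 of the 9 genes did not overlap between the WD liver groups. Acadvl, Acadm and Acads, the dehydrogenases for very long, medium and short chains, were at 325, 483 and 340.2 against 274, 307 and 276 CPM, at 563, 622 and 629 against 499.7, 488 and 495 CPM, and at 135, 147 and 115.8 against 107, 79.8 and 97.2 CPM, WT first. All 3 were lower in each N-LKO library, with log2 fold changes of −0.42 (SE 0.19), −0.29 (SE 0.20) and −0.49 (SE 0.20). The same order held for Hadh, the hydroxyacyl-CoA dehydrogenase (426, 434 and 434 CPM in WT livers, 390.2, 291 and 362 CPM in N-LKO livers), for Echs1, the enoyl-CoA hydratase (182, 177 and 153 against 151, 108 and 140.0 CPM), and for Acaa2 (602, 725 and 577 against 489, 435 and 504 CPM). Their log2 fold changes were −0.31, −0.36 and −0.41. Acadl, Hadha and Hadhb were the cycle genes that overlapped, with log2 fold changes of −0.19, −0.25 and −0.15. Of the auxiliary genes, Eci1, an enoyl-CoA isomerase, did not overlap (125, 143 and 137 CPM against 106, 94.2 and 112 CPM), while Eci2 and Decr1 did.

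Peroxisomal genes were less uniform in the WD livers. Of the 8, 6 had log2 fold changes below 0, with a median of −0.24, and 5 did not overlap between the groups. Acaa1a stood at 233, 272 and 233 CPM in WT livers and 161.997, 187.55 and 174.87 CPM in N-LKO livers, lower in every N-LKO library (log2 fold change −0.49, SE 0.19, edgeR adjusted p = 0.375). Acaa1b stood at 1708, 1659 and 1659 CPM in WT livers and 1098, 1478 and 1305 CPM in N-LKO livers (log2 fold change −0.37, SE 0.29). Abcd3, Hsd17b4 and Decr2 were also lower in every N-LKO library, by −0.22, −0.19 and −0.36 on the log2 scale. Crot went the other way in its mean, at 1257 to 1374 CPM in WT livers and 1200.0 to 1604 CPM in N-LKO livers. Ehhadh stood at 1314, 1578 and 1621 CPM in WT livers and at 933, 2247 and 1356 CPM in N-LKO livers, so N-LKO replicate 2 was the highest and replicate 1 the lowest of the 6 livers.

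N-LKO replicate 2 also held the most Pdk4, Fgf21, Acot1 and Acot2 of the WD N-LKO livers. Pdk4 was at 22.9, 23.9 and 67.7 CPM in WT livers and 20.2, 108 and 42.7 CPM in N-LKO livers, and Fgf21 at 3.98, 12.4 and 9.36 CPM in WT livers and 7.34, 24.5 and 12.9 CPM in N-LKO livers. Both genes overlapped between the groups, with log2 fold changes of 0.58 (SE 0.66) and 0.80 (SE 0.63). Bdh1 and Vnn1 had log2 fold changes of −0.20 and −0.13, and Ppara and Ppargc1a of −0.38 (SE 0.20) and −0.28 (SE 0.26). Ppara was at 260.5, 365 and 334 CPM in WT livers and 273, 221 and 243 CPM in N-LKO livers, where WT replicate 1 lay inside the N-LKO range.

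The WD liver comparison leaned on single libraries. Without WT replicate 2 or without N-LKO replicate 3, 0 of the 32 genes passed an unadjusted p of 0.05, without N-LKO replicate 1 only 1 did, and the median without WT replicate 2 was −0.17. Markers of the tissue moved in the same comparison. All 7 measured hepatocyte markers had log2 fold changes below 0 (median −0.46, summed level 42983 to 53207 CPM in WT livers and 31198 to 39854 CPM in N-LKO livers), as had all 7 periportal markers (median −0.91, 5453 to 11854 CPM against 4099.7 to 5219.8 CPM), and all 6 cholangiocyte markers were above 0 (median 1.20, 17.8 to 70.2 CPM against 115.7 to 153 CPM). edgeR called 0 of these markers, and 3 hepatocyte, 2 periportal and 2 cholangiocyte markers passed at an unadjusted p under 0.05. Their part in the values of the oxidation genes was not tested.

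**Figure D2:**
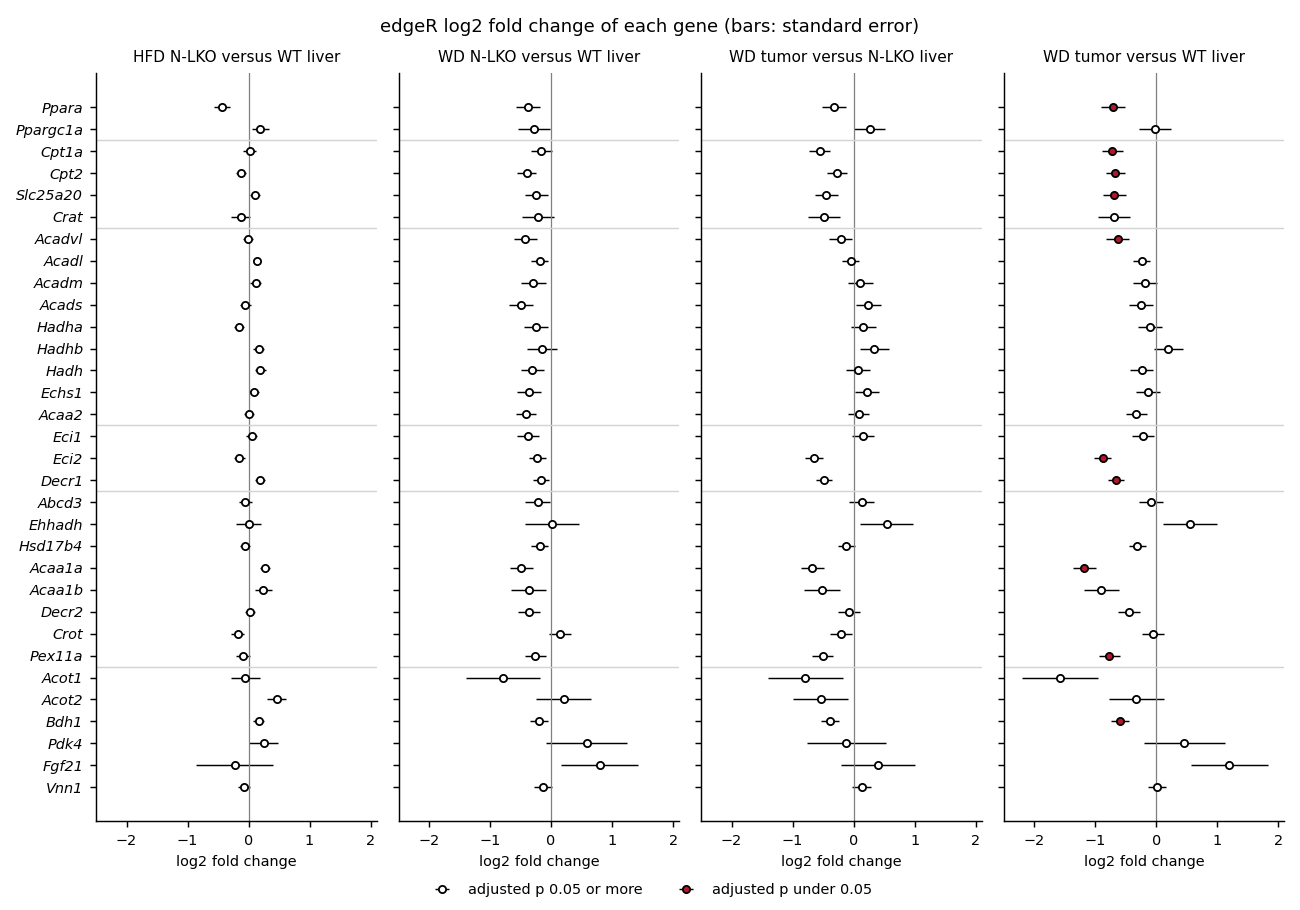
Log2 fold change of each of the 32 genes (rows, by role) in 4 comparisons, from edgeR, with bars for the standard error and filled points for an adjusted p under 0.05. Under WD all 16 mitochondrial genes lie left of 0 for N-LKO versus WT liver with no filled point, and 10 genes are filled for tumor versus WT liver.

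Tumors of WD-fed N-LKO mice had lower levels of several oxidation genes than WT livers of the same diet. edgeR called 10 of the 32 genes lower and 0 higher, where 6.80% of the 17829 genes tested were called lower. They were Ppara, the entry genes Cpt1a, Cpt2 and Slc25a20, the cycle gene Acadvl, the auxiliary genes Eci2 and Decr1, the peroxisomal genes Acaa1a and Pex11a, and Bdh1. The median log2 fold change was −0.32 over the 32 genes and 0.04 over all genes. Every tumor was below every WT liver for 13 of the 32 genes, where this held for 16.4% of all genes, and above for 0. This comparison shares its WT livers with the one above and its tumors with the next.

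Of the mitochondrial genes, edgeR called 3 of 4 entry genes, 1 of 9 genes of the cycle and 2 of 3 auxiliary genes. This division changed with the setting. The fit of only the 2 groups compared called Acaa1a, Eci2 and Pex11a, and no entry gene. Cpt1a (chromosome 19 of GRCm38, 3322334 to 3385733, plus strand) stood at 868, 1192 and 989.8 CPM in WT livers and at 632, 558 and 660.5 CPM in tumors, a log2 fold change of −0.72 (SE 0.17, edgeR adjusted p = 0.0236). Cpt2 stood at 182, 227 and 179.7 CPM in WT livers and 114.4, 108 and 147 CPM in tumors (−0.67, SE 0.16, edgeR adjusted p = 0.0243). Slc25a20 stood at 150.5, 188 and 163.4 CPM in WT livers and 103.97, 76.5 and 132 CPM in tumors (−0.69, SE 0.19, edgeR adjusted p = 0.0387). In each of these genes the lowest WT liver was above the highest tumor. Crat had a log2 fold change of the same size, −0.69 (SE 0.26), but overlapped at 91.02 to 153 CPM in WT livers and 63.3 to 101 CPM in tumors, and did not pass (edgeR adjusted p = 0.0966). The 4 entry genes had a median log2 fold change of −0.69, between −0.85 and −0.57 over the 18 alternatives.

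The cycle genes had a median log2 fold change of −0.24 in tumors, between −0.38 and −0.06 over the alternatives. Acadvl (325, 483 and 340.2 CPM in WT livers, 255, 206 and 280.4 CPM in tumors) was the cycle gene called, at −0.63 (SE 0.19, edgeR adjusted p = 0.0492). Acadl, Acadm, Acads, Hadha, Hadh, Echs1 and Acaa2 overlapped, with log2 fold changes between −0.33 and −0.10. Hadhb stood at 119.8, 175.4 and 154 CPM in WT livers and at 108, 198 and 209 CPM in tumors, with tumor 1 below and tumors 2 and 3 above all WT livers (log2 fold change 0.20, SE 0.24). Among the auxiliary genes, Eci2, an enoyl-CoA isomerase that is also found in peroxisomes, stood at 214, 259 and 233 CPM in WT livers and 141, 126.01 and 117 CPM in tumors (−0.88, SE 0.14, edgeR adjusted p = 0.00839). Decr1 stood at 241, 276 and 249.7 CPM in WT livers and 161.8, 159 and 166 CPM in tumors (−0.66, SE 0.13, edgeR adjusted p = 0.0147). The 3 tumors were close to one another for Decr1, whose SD of log2 CPM among tumors was below that of all but 0.875% of genes tested. Eci1 overlapped, at 125 to 143 CPM in WT livers and 83.9 to 135 CPM in tumors.

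Of the 8 peroxisomal genes, 2 were called lower in tumors and 7 had log2 fold changes below 0, with a median of −0.38. Acaa1a stood at 233, 272 and 233 CPM in WT livers and at 113, 79.6 and 134 CPM in tumors. Its log2 fold change of −1.18 (SE 0.19, edgeR adjusted p = 0.00893) was the largest among the genes called, and with the reads of Acaa1b added in it was −0.93 (SE 0.28) and no longer passed (edgeR adjusted p = 0.0512). Acaa1b stood at 1708, 1659 and 1659 CPM in WT livers and at 969, 488 and 1242 CPM in tumors, below in every tumor but past no threshold alone (−0.90, SE 0.29, edgeR adjusted p = 0.0646). Pex11a stood at 228, 246 and 275 CPM in WT livers and 134, 145 and 160.5 CPM in tumors (−0.77, SE 0.17, edgeR adjusted p = 0.0205). Hsd17b4 and Decr2 were below all WT livers in every tumor without passing (−0.31 and −0.44, edgeR adjusted p 0.153 and 0.119). Abcd3 and Crot overlapped, at −0.09 and −0.06. Ehhadh, by contrast, stood at 836, 2669 and 3087 CPM in tumors and 1314 to 1621 CPM in WT livers, with tumor 1 below and tumors 2 and 3 above all WT livers (0.55, SE 0.44).

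**Figure D3:**
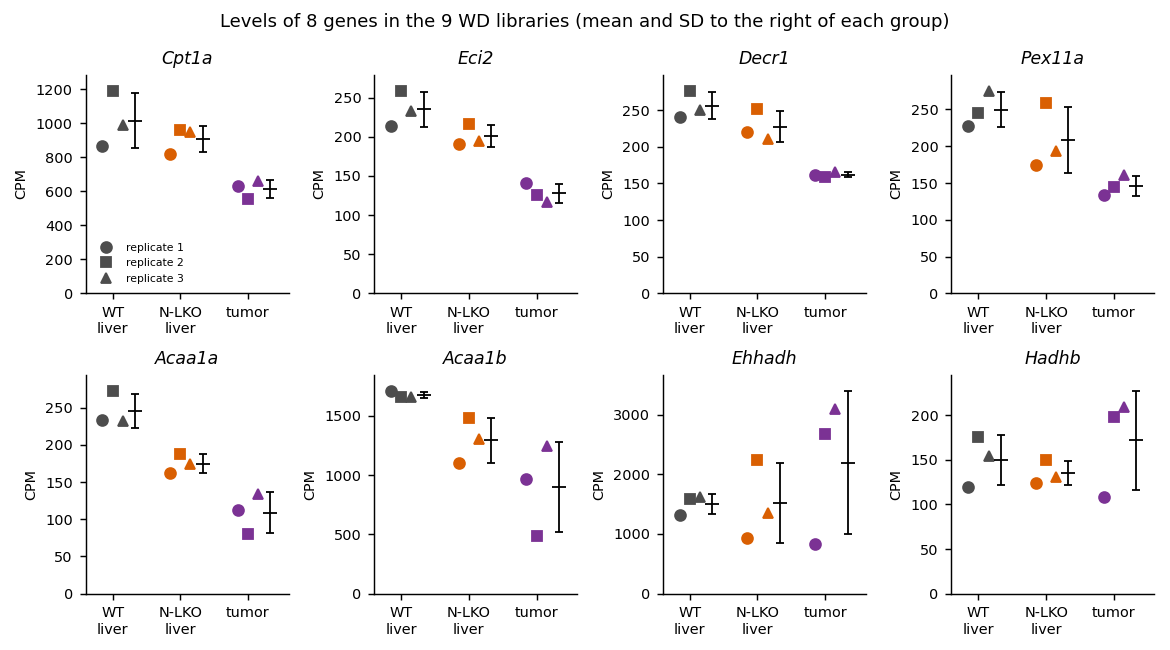
CPM of 8 of the genes (panels, axes from 0) in the 9 WD libraries, by group, with the mean and SD (n = 3) beside each group and symbols for the replicate number. Cpt1a, Eci2, Decr1, Pex11a and Acaa1a show all tumors below all livers of both genotypes, while Ehhadh and Hadhb spread widely among tumors.

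Ppara stood at 260.5, 365 and 334 CPM in WT livers and at 194, 149.5 and 244 CPM in tumors (log2 fold change −0.71, SE 0.20, edgeR adjusted p = 0.0442). Ppargc1a overlapped, at 17.5, 23.7 and 21.9 CPM in WT livers and 16.1, 16.2 and 30.2 CPM in tumors. Of the 6 other targets, Bdh1 was called, at 260.0, 302 and 269 CPM in WT livers and 188, 158 and 206 CPM in tumors (−0.59, SE 0.15, edgeR adjusted p = 0.0281). Acot1 had the largest negative value of the 32 genes, −1.58, with a standard error of 0.62, at 64.2, 184 and 162.6 CPM in WT livers and 32.5, 21.8 and 83.3 CPM in tumors. Its groups overlapped and it did not pass (edgeR adjusted p = 0.107). Fgf21 stood at 3.98, 12.4 and 9.36 CPM in WT livers and 5.93, 34.5 and 18.5 CPM in tumors (1.20, SE 0.63), while Acot2, Pdk4 and Vnn1 had log2 fold changes of −0.33, 0.46 and 0.01.

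Acaa1a and Eci2 were called lower in all 18 alternatives that kept the genes apart. Decr1 and Pex11a were called in 16 of them, Cpt1a and Cpt2 in 14, Bdh1 in 11, Ppara and Slc25a20 in 7 and Acadvl in 6. The count of genes called changed when a library was left out, to 2 without WT replicate 2 (Acaa1a and Eci2), 5 without WT replicate 1 and 4 without WT replicate 3, 7, 7 and 6 without N-LKO replicates 1, 2 and 3, and 7, 4 and 13 without tumors 1, 2 and 3. Without WT replicate 2 the log2 fold changes of Acaa1a and Eci2 were −1.10 and −0.81.

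Other tissue markers differed between tumors and WT livers as well. By the same test, 3 of 7 hepatocyte markers were lower (Ttr, Hnf4a and Asgr1, −0.79 to −0.73), with summed levels of 42983 to 53207 CPM in WT livers and 35319 to 59495 CPM in tumors. Pericentral hepatocyte markers, 7 of 7 below 0 and 0 called, summed to 10950.3 to 15516 CPM in WT livers and to 5583, 431 and 585 CPM in tumors 1, 2 and 3 (replicate numbers). The proliferation genes Mki67, Top2a and Cdk1 were higher (2.11 to 2.36), as were Sox9 and Spp1 (2.67 and 2.88) of the 6 cholangiocyte markers, whose median was 0.49 with 2 below 0. Among endothelial markers 2 of 6 were called higher and 1 lower, and 2 of 6 tested T and B lymphocyte markers were higher. Lower were 2 of 8 stellate cell and fibroblast markers, 1 of 8 of Kupffer cells and macrophages, 1 of 2 tested adipocyte markers and 1 of 7 periportal markers. Of all genes, 8.08% were called higher and 6.80% lower. The part of these differences in the oxidation genes was not tested.

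Against N-LKO livers of the same diet, the tumors showed lower levels of a smaller set of genes, none of which passed the adjusted test. edgeR called 0 of the 32 genes, where 0.499% of all genes were called. At an unadjusted p under 0.05, 7 genes were lower and 0 higher, where 8.19% of all genes were lower at that level. DESeq2 called 4 of the 32 (Acaa1a, Cpt1a, Decr1 and Eci2), all lower, where it called 5.73% of all genes in either direction and 2.30% lower, and limma-voom called 0, where it called 0.101% of all genes. The 7 genes were Cpt1a, Slc25a20, Eci2, Decr1, Acaa1a, Pex11a and Bdh1, and they were also the 7 of 32 in which every tumor was below every N-LKO liver, where this held for 11.6% of all genes. The median log2 fold change was −0.12 over the 32 genes and 0.02 over all genes.

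Eci2 came closest to the threshold. It stood at 191, 217 and 195 CPM in N-LKO livers and at 141, 126.01 and 117 CPM in tumors, a log2 fold change of −0.65 (SE 0.14, edgeR adjusted p = 0.0743), and without tumor 1 it passed (−0.73, edgeR adjusted p = 0.0140). Cpt1a stood at 820.5, 959 and 950.1 CPM in N-LKO livers against 632, 558 and 660.5 CPM in tumors (−0.56, SE 0.17, edgeR adjusted p = 0.134). All 4 entry genes were below 0, with a median of −0.47. The cycle genes were on the other side, with 7 of 9 above 0 and a median of 0.11, though 0 passed an unadjusted p of 0.05. Without tumor 3, 6 of the 9 cycle genes were below 0, and their median over the alternatives ran from −0.06 to 0.29. The sum over the 9 cycle genes was 2779, 2682 and 2735 CPM in N-LKO livers and 2377, 2819 and 3513 CPM in tumors, and that over the 4 entry genes 1184, 1403 and 1336 CPM against 914, 808 and 1040.5 CPM.

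The peroxisomal genes Acaa1a and Pex11a fell below all N-LKO livers in the tumors. Acaa1a stood at 161.997, 187.55 and 174.87 CPM in N-LKO livers and 113, 79.6 and 134 CPM in tumors (−0.68, SE 0.19, edgeR adjusted p = 0.114), and Pex11a at 174, 259 and 193 CPM against 134, 145 and 160.5 CPM (−0.51, SE 0.17, edgeR adjusted p = 0.167). The other 6 peroxisomal genes overlapped, with log2 fold changes from −0.52 for Acaa1b to 0.54 for Ehhadh. Bdh1 was at 234, 263 and 226 CPM in N-LKO livers and 188, 158 and 206 CPM in tumors (−0.39, SE 0.15). Ppara overlapped (−0.32, SE 0.20). The number of genes at an unadjusted p under 0.05 ran from 4 without N-LKO replicate 2 to 12 without tumor 3, all lower, and without tumor 1 it was 10, of which 6 were lower and 4 higher.

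Tissue markers differed in this comparison too. All 7 pericentral markers were below 0 (median −2.05, 4 lower at an unadjusted p under 0.05, 0 called), with summed levels of 8712 to 9159 CPM in N-LKO livers and 431 to 5583 CPM in tumors. Of 7 hepatocyte markers 4 were below 0 (median −0.13). Of 6 cholangiocyte markers 4 were below 0 (median −0.84) and Sox9 was called higher (1.90). At an unadjusted p under 0.05, 3 of 8 markers of Kupffer cells and macrophages, 3 of 8 of stellate cells and fibroblasts and both tested adipocyte markers were lower, and 2 of 5 proliferation genes were higher. Their part in the values of the oxidation genes was not tested.

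The tumors differed among themselves more than the livers did. The median SD of log2 CPM over the 32 genes was 0.360 in tumors, 0.129 in WD N-LKO livers and 0.164 in WD WT livers, where the medians over all genes were 0.333, 0.180 and 0.239. Tumor 3 held the highest level of the 3 tumors for 27 of the 32 genes, against 31.3% of all genes. Tumor 1 held the lowest for 16 of the 32 genes, against 33.1% of all genes, among them Acadm (393, 500.5 and 710.0 CPM in tumors 1, 2 and 3), Abcd3 (467, 578 and 806 CPM) and Hadha (413, 628 and 649 CPM). Tumor 2 combined the lowest Acaa1b (488 CPM, against 969 and 1242 CPM) with a high Ehhadh (2669 CPM), another step of the same peroxisomal cycle, and it held the highest Fgf21 and Pdk4 of the tumors. Summed levels of the 16 mitochondrial genes were 3677, 4047 and 4965 CPM in tumors 1, 2 and 3, and those of the 8 peroxisomal genes 4283, 6166 and 7475 CPM.

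An interaction term over the 14 livers tested whether N-LKO and WT livers differed alike on both diets. The effect under WD was lower than that under HFD for 27 of the 32 genes, with a median difference of −0.30 on the log2 scale (0.00 over all genes). edgeR called 1 gene, Acaa1a, lower, where 1.03% of the 15850 genes tested were called lower. At an unadjusted p under 0.05, 14 of the 32 genes were lower and 0 higher, where 10.8% of all genes were lower at that level. Acaa1a was 0.27 higher in N-LKO than in WT livers under HFD and 0.49 lower under WD, a difference of −0.73 (SE 0.13, edgeR adjusted p = 0.0212) in the joint fit. It was called in 20 of 23 alternatives and not with the replicate block, with an offset for transcript length and GC content or without WD N-LKO replicate 3 (edgeR adjusted p 0.0701, 0.0863 and 0.0591), and with the reads of Acaa1b added in it was −0.61 (edgeR adjusted p = 0.116).

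All 16 mitochondrial genes had interaction values below 0, from −0.48 for Hadh to −0.05 for Crat, with a median of −0.33, and 10 of them passed an unadjusted p of 0.05. These were Slc25a20, Acadvl, Acadl, Acadm, Acads, Hadh, Echs1, Acaa2, Eci1 and Decr1. Hadh was 0.19 higher under HFD and 0.31 lower under WD in N-LKO livers, a difference of −0.48 (SE 0.15, edgeR adjusted p = 0.105). Of the 8 peroxisomal genes 6 were below 0, with a median of −0.14, and 3 passed unadjusted (Acaa1a, Acaa1b and Decr2), as did Bdh1 of the other targets. DESeq2 called 8 of the 32 genes lower, where it called 3.90% of all genes lower. Without WD WT replicate 2 the median over the 32 genes was −0.23 and 13 of the 16 mitochondrial genes stayed below 0. In the same interaction all 7 hepatocyte markers were below 0 (median −0.36, 3 at an unadjusted p under 0.05), as were all 7 periportal markers (median −1.02, 5 at an unadjusted p under 0.05, Cyp2f2 called at −1.22). Their part in the interaction values was not tested. Diet and count table cannot be told apart, and CPM were scaled apart in each table. Levels printed for 1 diet are therefore not to be read against those of the other.

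**Figure D4:**
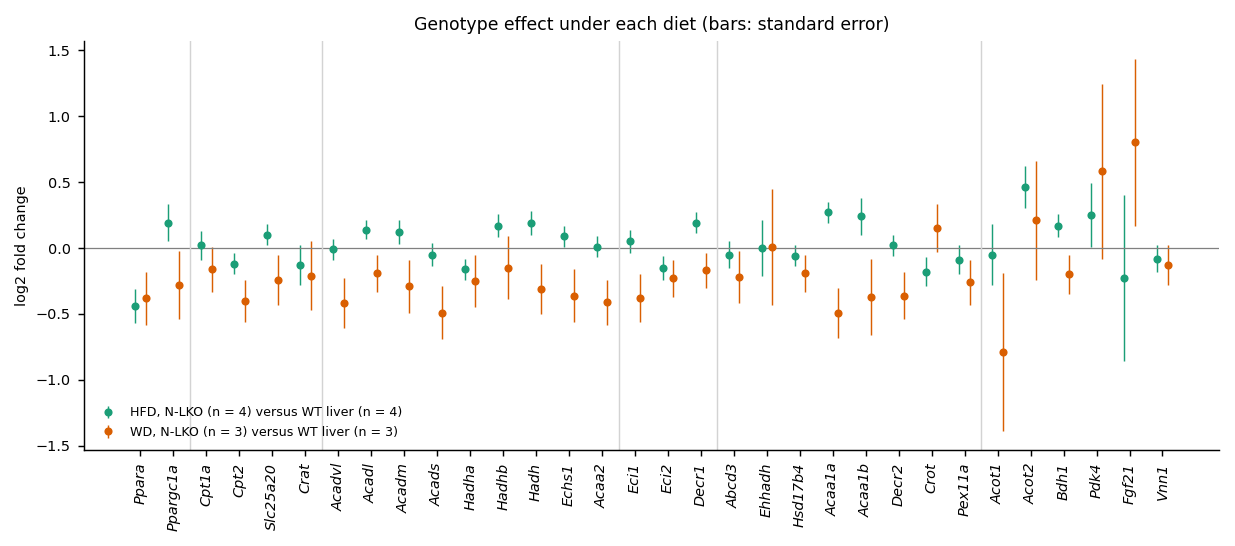
Log2 fold change of N-LKO over WT liver for each of the 32 genes under HFD (n = 4 against 4) and under WD (n = 3 against 3), with bars for the standard error. Under WD all 16 mitochondrial genes lie below 0, and under HFD 10 of them lie above 0, and Acaa1a is the only gene of the 32 whose effects differed by the adjusted test.

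A wider list of 105 companion genes of the same pathways gave the surroundings of these values. Under HFD, all but 3 of the companions were tested, of which 2 were called higher and 4 lower, where 2.56% and 2.29% of all genes were. Sdhd and Sdhc, subunits of succinate dehydrogenase, were higher in N-LKO livers (0.35 and 0.33), and Txnip, Nrip1 and Med1 were the lower genes with the largest changes (−0.60, −0.45 and −0.38). Nrip1 and Med1 encode coregulators of nuclear receptors. Under WD all but 1 of the 105 were tested, and 0 companions were called between N-LKO and WT livers by edgeR, and 20 were lower and 1 higher at an unadjusted p under 0.05, where 5.31% of all genes were lower. Their log2 fold changes were below 0 for 86 of those tested, with a median of −0.28. The tricarboxylic acid cycle list, of mitochondrial genes outside beta-oxidation, had a median of −0.27, and the peroxisome biogenesis list one of −0.23, close to the −0.27 and −0.24 of the mitochondrial and peroxisomal oxidation genes.

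Between tumors and WT livers, 29 companions were called lower and 2 higher, where 6.80% and 8.08% of all genes were. The 5 largest changes were those of Cyp4a14, a fatty acid omega-hydroxylase and PPAR alpha target (−3.45), Acss1, a mitochondrial acetyl-CoA synthetase (3.12), Nudt7, a peroxisomal hydrolase of coenzyme A (−1.81), Acot4, a peroxisomal thioesterase (−1.65), and Mlycd, malonyl-CoA decarboxylase (−1.62). Cyp4a14 stood at 1067, 3732 and 2922 CPM in WT livers and at 451, 115 and 141 CPM in tumors. By list, 6 of 13 genes of companion peroxisomal oxidation, 7 of 13 of fatty acid activation and microsomal oxidation, 5 of 13 of companion mitochondrial oxidation, 5 of 14 of peroxisome biogenesis, 4 of 16 PPAR partners and coregulators and 2 of 16 of the tricarboxylic acid cycle were called lower. Between tumors and N-LKO livers edgeR called 0 companions, with 22 lower and 9 higher at an unadjusted p under 0.05, where 8.19% of all genes were lower. In the interaction 4 companions were called, all lower (Etfb, Sdhc, Sdhd and Pex5, −0.83 to −0.52), where 1.03% of all genes were called lower.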

How the data were processed

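RNA was sequenced from 14 livers and 3 tumors, with a stated read length of 75 bases. The study's methods also give a number of sequencing cycles below that length. Shared windows were counted at 75 bases only. The authors deposited 1 table of estimated counts per gene for each diet, made with the Partek quantification to an annotation model, which can divide a read between the transcripts or genes it fits. Of the values, 69.7% and 66.6% were whole numbers. The labels name the aligner STAR and the build mm9 and the study's methods another aligner, while 97.2% and 96.8% of gene positions in the tables equalled those of GRCm38 (GENCODE M21), which was used here.

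Counts were rounded, filtered with filterByExpr, scaled by TMM and tested with the quasi-likelihood test of edgeR 4.0.16 in R 4.3.3, with Benjamini-Hochberg adjustment over all genes and a threshold of 0.05. The 8 HFD livers were fitted alone, the 9 WD libraries together, and the interaction over the 14 livers on genes in both tables. DESeq2 1.42.0 and limma-voom (limma 3.58.1) were alternatives, beside other scalings, filters, a length and GC offset, a replicate block and leaving out each library. The edgeR fits other than the interaction were tested on simulated counts with known changes. Of changes of 1 on the log2 scale, 76.8% were recovered under HFD and 29.9% to 30.3% in the WD comparisons. Of changes of 2, the shares were 99.0% and 84.8% to 88.9%. Smaller changes were not simulated. CPM are TMM-scaled, with no prior count, and 0.01 CPM was added before SDs of log2 CPM were taken. All 32 genes were named, and of the 105 companions at most the 5 largest called changes per comparison; some items are not reported here. The 32 genes and all lists were chosen with earlier results of these data known. Replicate numbers of the labels were not used as pairs in the main fits, and the sources used here do not say whether samples were paired.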

Additional observations from a re-analysis of the deposited data

Results flagged for a closer look

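Among the HFD groups of 4 livers, 1 library stood apart from the other 3, relative to the range of the group, for 5 genes. This was in 6 of the 64 groups examined. Independent groups would pass this limit about 1 time in 20. The 64 groups came from the same libraries and were not independent, and most of the cases fell in N-LKO replicate 2. The share over all genes was not taken, so the count is not read as a trait of these genes. N-LKO replicate 2 was the highest of its group for 32.2% and the lowest for 30.2% of all genes tested. The ratio leaves out the size of the spread. For Cpt1a in N-LKO livers the SD of log2 CPM, 0.0923, was above that of 15.1% of genes tested. A library was listed where its gap to the nearest other library, over the range of the group, was above 0.829. In N-LKO replicate 2 this held for Cpt1a, high at 629 CPM (gap ratio 0.98), Ehhadh, high at 807 CPM (0.94), Fgf21, high at 13.9 CPM (0.84), Hsd17b4, low at 479.9 CPM (0.88), and Hadh, low at 445 CPM (0.87). In WT replicate 3 it held for Hsd17b4, low at 506 CPM (0.86). The log2 fold change of N-LKO over WT liver differed between diets for Acaa1a, by −0.73 (edgeR adjusted p = 0.0212), with the limits given beside that result.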

How the results depend on the processing

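Across the alternatives, 0 of the called values of the 32 genes reversed, 58 lost and 23 gained a call, and 2914 kept their direction and side of the threshold or were uncalled throughout. Under HFD edgeR called 0 of the 32 genes and DESeq2 2, and leaving out single libraries gave 0 to 1. Between WD livers every alternative gave 0. For tumor against N-LKO liver DESeq2 gave 4 where edgeR gave 0, and leaving out single libraries gave 0 to 1. For tumor against WT liver the fit of only the 2 groups gave 3 where the joint fit gave 10, and leaving out single libraries gave 2 to 13. For the interaction DESeq2 gave 8, the length and GC offset 0 and leaving out single libraries 0 to 1, where edgeR gave 1. The cause of these differences was not tested. Over all genes, calls were 652 under HFD (179 to 1000 over the alternatives), 0 between WD livers (0 to 100), 89 for tumor against N-LKO liver (3 to 2193), 2653 for tumor against WT liver (569 to 3819) and 257 for the interaction (0 to 981).

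With the replicate block, 0 of the 32 genes were called under HFD, 0 between WD livers, 0 for tumor against N-LKO liver and 0 for the interaction, and 7 for tumor against WT liver, of which Fgf21 was higher (log2 fold change 1.04, edgeR adjusted p = 0.0300). Correlations of same-numbered samples' deviations from their group means were −0.12 to 0.11. Such values cannot tell whether a tumor and a liver came from the same mouse, and samples with different numbers were not correlated. With 3 libraries a group under WD, changes within the spread of 1 library cannot be resolved.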
